A study of Mus musculus with 8 samples.

Results

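Naive T cells are kept at rest and in circulation through lymphoid organs by a small set of transcription factors and surface receptors, and 9 genes of that set were read here in induced regulatory T cells: Foxo1, Foxo3, Klf2, S1pr1, Ccr7, Tcf7, Lef1, Bach2 and Btg1. They were chosen by name, with earlier results of these data in view, all 9 were found among the 23361 gene symbols of the deposited table, and all 9 passed the filter on low values. The RNA came from Foxp3-RFP+ iTreg, a kind of regulatory T cell made in culture from naive splenic CD4+ T cells of wild-type B6 reporter mice. The cells received anti-CD3/CD28 microbeads, IL-2 at 50 U/ml and TGF-β at 2 ng/ml, and were then sorted on the Nrp-1 protein into a positive and a negative fraction, Nrp-1+ iTreg and Nrp-1- iTreg. Each fraction had 4 libraries, which the labels call biological replicates. The labels give 3 days of culture in one field and day 5 in another, so the age of the culture is uncertain. Both groups share the reporter, the culture and the Foxp3 gate, and the labels do not say whether the replicates came from separate mice, so the p values measure the spread between these libraries. The question is whether the resting and homing programme differs between the iTreg subsets that the Nrp-1 sort divides.

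FOXO1 and FOXO3 are forkhead transcription factors that work in the nucleus of resting T cells and are sent to the cytoplasm when AKT or SGK kinases phosphorylate them after stimulation. FOXO1 is known to drive Klf2, Ccr7 and Il7r, and KLF2 in turn drives S1pr1, the receptor for sphingosine-1-phosphate that guides T cells out of lymph nodes. CCR7 is the chemokine receptor that brings T cells into lymph nodes, TCF-1 (gene Tcf7) and LEF-1 are related DNA-binding proteins of naive and memory T cells, BACH2 is a repressor that restrains effector genes, and BTG1 is an antiproliferative protein of resting lymphocytes.

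Values are FPKM, fragment counts scaled by the length of the gene's transcripts and by the size of the library, so that levels can be set beside each other between genes. The test was limma on log2(FPKM + 1) over the 10467 genes whose mean FPKM reached 1, p values were adjusted by Benjamini-Hochberg over all of them, and a gene passed at an adjusted p under 0.05. Nrp1 itself was at 20.4 to 22.0 FPKM in Nrp-1+ iTreg and at 4.70 to 5.31 FPKM in Nrp-1- iTreg, in the direction of the labels. Foxp3 was at 115.8 ± 3.72 FPKM (SD, n = 4) and 108.8 ± 1.20 FPKM (SD, n = 4), with an adjusted p of 0.0245 by limma that was lost when any of 3 libraries (Nrp-1+ replicate 2, Nrp-1- replicates 2 and 3) was left out. Total fragments per library were not used here. Depth relative to the first library, read from genes under 0.3 FPKM, was 0.810 to 1.24. The method kept only genes with similar values in the compared libraries, so a large difference in depth could not have shown. Over all genes, 40.9% of those tested passed, 2093 lower (20.0%) and 2189 higher (20.9%) in Nrp-1+ iTreg, so a pass alone sets no gene apart. Lower genes were 48.9% of the calls on deposited values, 26.5% when short RNA genes were removed and the rest rescaled, and 59.4% with quantile normalization of the rest. Fewer cells of a type and less RNA per cell cannot be told apart in such bulk samples.

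Of the 9 genes, 7 carry a start-site window in the promoter table of NCBI RefSeq for assembly GRCm38.p6, the build family that the submitters' processing notes name (GRCm38, mm10). They are Foxo1, Foxo3, Klf2, Tcf7, Lef1, Bach2 and Btg1, with 11 windows of 300 bases between them, each running from 250 bases before a start to 50 bases after it. The exact letters GTAAACA, or TGTTTAC on the other strand, the core that forkhead factors such as FOXO1 prefer, stood in 2 of the 11 windows, against 3.65% of all 32851 windows. The matches were in Btg1 and in the downstream of the Tcf7 starts. The windows of Btg1, Tcf7 and Klf2 are shown, Btg1 and Tcf7 because they hold that core and Klf2 because it stands between FOXO1 and S1pr1 in the pathway. Klf2, Foxo1, Foxo3, Lef1 and Bach2 had no match to the core, and genes with and without a match were among those that passed the test of expression. Capitals mark the forkhead core in Btg1 and Tcf7 and, in Klf2, GGGCGGG, the GC box read by SP and KLF factors. The letters searched were chosen with these windows in view. The Btg1 window is chr10:96616751-96617050 on the plus strand, the Tcf7 window chr11:52282546-52282845 on the minus strand and the Klf2 window chr8:72318812-72319111 on the plus strand.
Btg1: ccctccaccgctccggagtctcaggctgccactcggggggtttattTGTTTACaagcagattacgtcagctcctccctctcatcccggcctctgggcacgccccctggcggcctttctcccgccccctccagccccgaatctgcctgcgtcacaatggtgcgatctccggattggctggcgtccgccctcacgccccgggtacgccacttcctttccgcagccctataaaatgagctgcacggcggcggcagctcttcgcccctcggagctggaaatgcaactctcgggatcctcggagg
Tcf7: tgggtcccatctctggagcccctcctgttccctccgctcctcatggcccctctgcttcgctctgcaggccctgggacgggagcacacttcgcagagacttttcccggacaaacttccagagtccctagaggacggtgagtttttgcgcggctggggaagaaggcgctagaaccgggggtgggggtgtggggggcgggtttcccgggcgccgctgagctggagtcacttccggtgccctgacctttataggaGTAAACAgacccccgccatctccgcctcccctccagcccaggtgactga
Klf2: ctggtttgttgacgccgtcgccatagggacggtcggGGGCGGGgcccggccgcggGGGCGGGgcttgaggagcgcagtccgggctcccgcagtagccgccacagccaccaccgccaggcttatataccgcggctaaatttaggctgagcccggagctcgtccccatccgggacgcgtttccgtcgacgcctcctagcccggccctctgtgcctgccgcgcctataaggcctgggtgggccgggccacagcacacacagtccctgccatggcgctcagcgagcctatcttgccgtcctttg

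In Btg1 the core began 204 bases before the start, and in Tcf7 it began 1 base after it. The GC boxes of Klf2 began 214 and 195 bases before the start. The TCF and LEF core CTTTGAA and the AP-1 and BACH core TGAGTCA, searched on both strands, had no match in the 11 windows and stood in 5.14% and 5.20% of all windows. The GC box GGGCGGG, or CCCGCCC on the other strand, stood in 9 of the 11 windows, against 25.6% of all windows. The windows are not all separate, since Lef1 windows that overlap hold the same GC box. By gene, it stood in 6 of 7, all but Bach2, against 27.9% of all genes with a window. No motif overlapped another in the capitals shown. The content of G and C ranged from 43.7% in a Lef1 window to 76.3% in a Tcf7 window, and a match of letters is a description of the sequence and not a binding site. On GRCm38.p6, Foxo1 is at chr3:52268337-52350109, S1pr1 at chr3:115710433-115715055, Lef1 at chr3:131110297-131224357 and Bach2 at chr4:32238413-32586109. Klf2 is at chr8:72319062-72321654, Foxo3 at chr10:42181845-42276695, Btg1 at chr10:96617001-96622813, Tcf7 at chr11:52246527-52283383 and Ccr7 at chr11:99144199-99155077.

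All 9 genes had a lower mean in Nrp-1+ iTreg, and 7 of them passed the test, where 20.0% of all tested genes were lower and passed and 20.9% were higher. None of the 9 was higher. The 7 were S1pr1, Btg1, Tcf7, Ccr7, Lef1, Foxo1 and Bach2, and in each of them every Nrp-1+ library lay below every Nrp-1- library, as in 19.3% of all tested genes, beside 20.2% with every Nrp-1+ library above. The exceptions were Foxo3 and Klf2. The differences were small, from -5.00% for Klf2 to -16.7% for S1pr1 relative to Nrp-1- iTreg, and the median log2 fold change of the 9 genes was -0.11, beside -0.016 over all tested genes. S1pr1, Btg1 and Tcf7 stood at -16.7%, -15.0% and -14.8%, and the other 6 genes between -7.88% and -5.00%. The calls depended on how the libraries were scaled. With the short RNA genes removed and each library rescaled to the same sum, S1pr1, Btg1 and Tcf7 passed and the other 6 did not. With quantile normalization S1pr1, Btg1, Foxo1 and Bach2 passed. Over the whole table, 1065 genes were lower and 2956 higher with the rescaling, and 2026 lower and 1772 higher with quantile normalization. All 9 genes stayed lower in Nrp-1+ iTreg, and below the median of all genes, under these scalings.

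**Figure D1:**
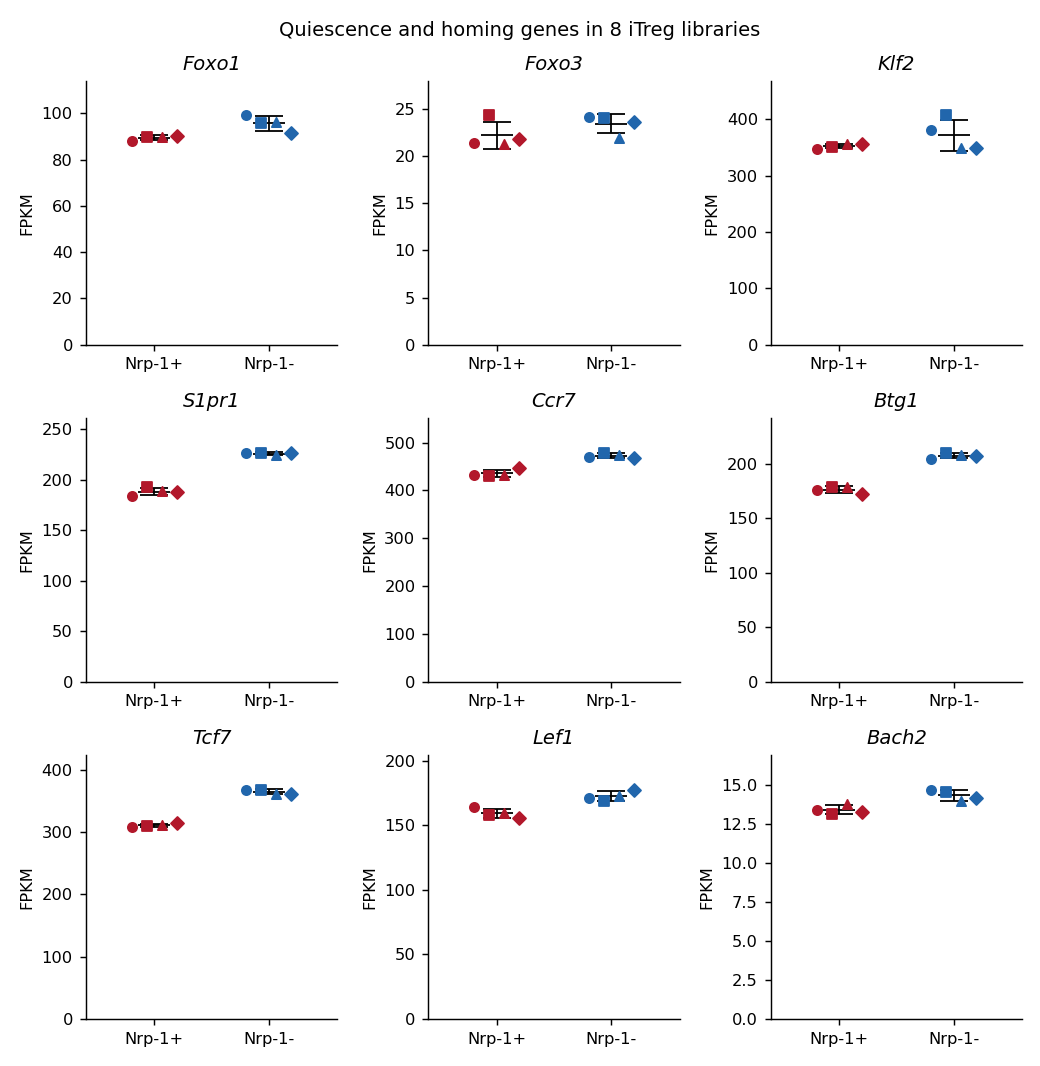
FPKM of the 9 genes in the 4 Nrp-1+ iTreg (red) and 4 Nrp-1- iTreg (blue) libraries, each panel with its own axis from 0. Symbols mark replicates 1 to 4 (circle, square, triangle, diamond), bars the mean and SD, and the groups overlap only in Foxo3 and Klf2.

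Among the forkhead factors, Foxo1 was at 88.0, 89.8, 89.9 and 90.4 FPKM in Nrp-1+ iTreg replicates 1 to 4 and at 99.2, 95.9, 96.3 and 91.6 FPKM in Nrp-1- iTreg. The highest Nrp-1+ library lay 1.17 FPKM below the lowest Nrp-1- library, and the means were 89.5 ± 1.05 and 95.7 ± 3.13 FPKM (SD, n = 4). The log2 fold change was -0.10 (standard error 0.026, adjusted p = 0.0201 by limma; exact two-sided permutation test of the difference, p = 0.0286, the smallest that 4 against 4 allow). With any 1 of the 4 Nrp-1+ libraries left out, the exact permutation p of the difference was 0.0571. Without Nrp-1+ replicate 1 the adjusted p by limma was 0.0532. With the rescaling that leaves out short RNA genes the log2 fold change was -0.03 and the adjusted p by limma 0.551. Foxo3 was at 21.4, 24.3, 21.3 and 21.8 FPKM in Nrp-1+ iTreg and at 24.2, 24.1, 21.9 and 23.6 FPKM in Nrp-1- iTreg. The groups overlapped, since Nrp-1+ replicate 2 held the highest value of all 8 libraries. The log2 fold change of Foxo3 was -0.08, with a 95% interval from -0.19 to 0.036 (adjusted p = 0.242 by limma). Without that library, the adjusted p was 0.0439 and the log2 fold change -0.12. Foxo3 and Foxo1 were not shown to differ in their response. The ratio of Foxo1 to Foxo3 within a library averaged 4.05 in Nrp-1+ iTreg and 4.09 in Nrp-1- iTreg (exact two-sided permutation test of the log2 ratio, p = 0.857, adjusted p = 0.857 over the 3 pairs tested).

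The Nrp-1 groups were further apart for S1pr1 than for Klf2, the factor that drives it. Klf2 was at 347.9, 351.2, 355.2 and 356.4 FPKM in Nrp-1+ iTreg, a narrow range, and at 381.1, 406.8, 348.7 and 348.4 FPKM in Nrp-1- iTreg. Replicates 1 and 2 of Nrp-1- iTreg lay above every Nrp-1+ library, whereas replicates 3 and 4 lay within the Nrp-1+ range. The log2 fold change was -0.07 with a 95% interval from -0.19 to 0.043 (adjusted p = 0.288 by limma), and the SD was 3.90 FPKM in the former group and 28.2 FPKM in the latter. Without Nrp-1- replicate 2 the log2 fold change of Klf2 was -0.026, and it was -0.0083 with the rescaling that leaves out short RNA genes. S1pr1 was at 183.5, 192.8, 188.3 and 187.7 FPKM in Nrp-1+ iTreg and at 226.7, 226.4, 223.8 and 225.9 FPKM in Nrp-1- iTreg. A gap of 31.0 FPKM separated the groups, while the SD within a group was at most 3.82 FPKM. Replicates 1 and 2 of Nrp-1- iTreg lay above replicates 3 and 4 as for Klf2, but the 4 values spanned only 223.8 to 226.7 FPKM. S1pr1 had the largest change of the 9 genes, and its log2 fold change was -0.26 (standard error 0.020, adjusted p = 2.36e-05 by limma), and it ranked 1668 by size among the 4282 genes that passed. The level of S1pr1 relative to Klf2 within a library was 0.533 in Nrp-1+ iTreg and 0.610 in Nrp-1- iTreg. The log2 ratio differed by -0.19 between the groups (exact two-sided permutation test, p = 0.0286, adjusted p = 0.0429 over 3 pairs), with every Nrp-1+ library below every Nrp-1- library. Leaving out any 1 of the 4 Nrp-1+ libraries gave an exact permutation p of 0.0571, with differences from -0.21 to -0.19.

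**Figure D2:**
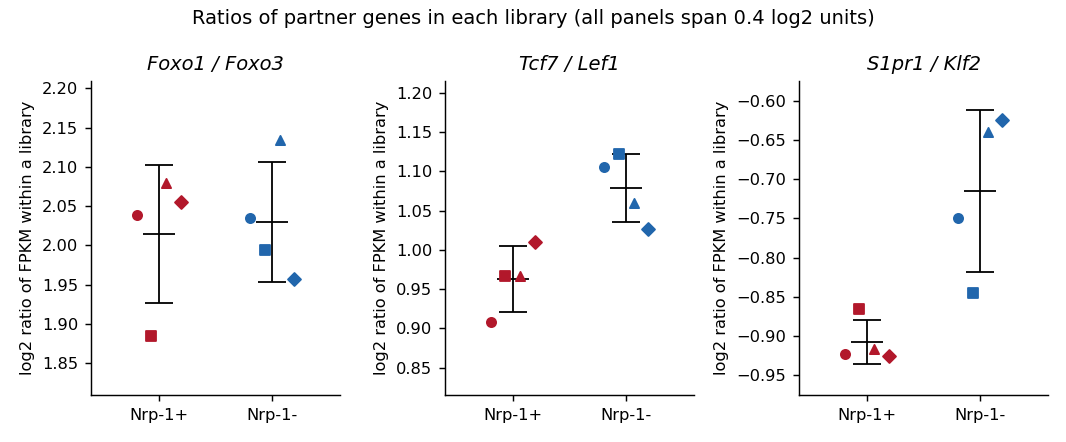
Log2 ratio of FPKM of Foxo1 to Foxo3, Tcf7 to Lef1 and S1pr1 to Klf2 in each library, with mean and SD per group and symbols as replicates 1 to 4 (circle, square, triangle, diamond). The groups are apart for Tcf7 to Lef1 and S1pr1 to Klf2 and mixed for Foxo1 to Foxo3, and all panels span the same length of axis.

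Ccr7 held the highest level of the 9 genes in both groups. It was at 432.5, 430.7, 432.2 and 446.1 FPKM in Nrp-1+ iTreg and at 469.9, 479.1, 474.7 and 466.8 FPKM in Nrp-1- iTreg, and it ranked 219 by level among all tested genes. The Nrp-1+ libraries were all lower, with replicate 4 nearest to the other group and still 20.7 FPKM below it. The log2 fold change was -0.12 (standard error 0.021, adjusted p = 0.00239 by limma), and the mean differed by -7.88%. With quantile normalization the log2 fold change was -0.09 and the adjusted p 0.462, and with the rescaling that leaves out short RNA genes they were -0.06 and 0.151. Short RNA genes held 1.81% to 44.0% of all FPKM in a library, and with quantile normalization of the other genes alone the adjusted p of Ccr7 was 0.0134.

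Tcf7 was at 307.8, 309.0, 311.4 and 313.8 FPKM in Nrp-1+ iTreg and at 367.5, 367.7, 360.3 and 361.5 FPKM in Nrp-1- iTreg. The groups were 46.5 FPKM apart, the widest gap of the 9 genes, while the SD within a group was at most 3.90 FPKM. The log2 fold change was -0.23 (standard error 0.018, adjusted p = 2.75e-05 by limma), and with quantile normalization the log2 fold change was -0.21 and the adjusted p 0.0971. Lef1 was at 164.0, 158.1, 159.3 and 155.8 FPKM in Nrp-1+ iTreg and at 170.7, 168.9, 172.8 and 177.5 FPKM in Nrp-1- iTreg. Its groups did not overlap either, but they were only 4.88 FPKM apart, and the log2 fold change was -0.11 (standard error 0.024, adjusted p = 0.00618 by limma). For Lef1 these were -0.12 and 0.186 with quantile normalization, and -0.05 and 0.177 with the rescaling that leaves out short RNA genes. Tcf7 was thus lower by more than Lef1. Tcf7 was 1.95 times Lef1 in Nrp-1+ iTreg and 2.11 times Lef1 in Nrp-1- iTreg, and the log2 ratio differed by -0.12 (exact two-sided permutation test, p = 0.0286, adjusted p = 0.0429 over 3 pairs). The exact permutation p of that ratio was 0.0571 when Nrp-1+ replicate 1, 2 or 3 or Nrp-1- replicate 1 or 2 was left out, and the difference then lay between -0.12 and -0.10.

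Btg1 was at 176.0, 178.3, 178.5 and 172.0 FPKM in Nrp-1+ iTreg and at 204.4, 210.1, 207.9 and 206.9 FPKM in Nrp-1- iTreg. All Nrp-1+ libraries were lower, and the mean differed by -15.0%. The log2 fold change was -0.23 (standard error 0.020, adjusted p = 4.46e-05 by limma), and Btg1 passed under all the alternatives run, as S1pr1 did. Bach2, the repressor, held the lowest level, at 13.4, 13.2, 13.8 and 13.3 FPKM in Nrp-1+ iTreg and 14.7, 14.6, 14.0 and 14.2 FPKM in Nrp-1- iTreg. Only 0.182 FPKM separated the groups, and the log2 fold change was -0.09 (standard error 0.026, adjusted p = 0.0260 by limma). The adjusted p of Bach2 lay between 0.0536 and 0.0674 when Nrp-1+ replicate 1, 2 or 4 or Nrp-1- replicate 1 or 2 was left out, with log2 fold changes of -0.091 to -0.079, and its call held without any 1 of the other 3 libraries. With the rescaling that leaves out short RNA genes the log2 fold change of Bach2 was -0.03 and the adjusted p 0.631.

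The order of the levels was the same in both groups. From high to low it ran Ccr7, Klf2, Tcf7, S1pr1, Btg1, Lef1, Foxo1, Foxo3 and Bach2, from a mean of 435.4 down to 13.4 FPKM in Nrp-1+ iTreg and of 472.6 down to 14.4 FPKM in Nrp-1- iTreg. Neighbours in the order did not overlap in their libraries, except Klf2 and Tcf7 in Nrp-1- iTreg, at 371.2 ± 28.2 and 364.3 ± 3.90 FPKM (SD, n = 4). By level, 6 of the 9 genes, all but Foxo1, Foxo3 and Bach2, were in the top 5.22% of tested genes, and Bach2 ranked 5401 of 10467.

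**Figure D3:**
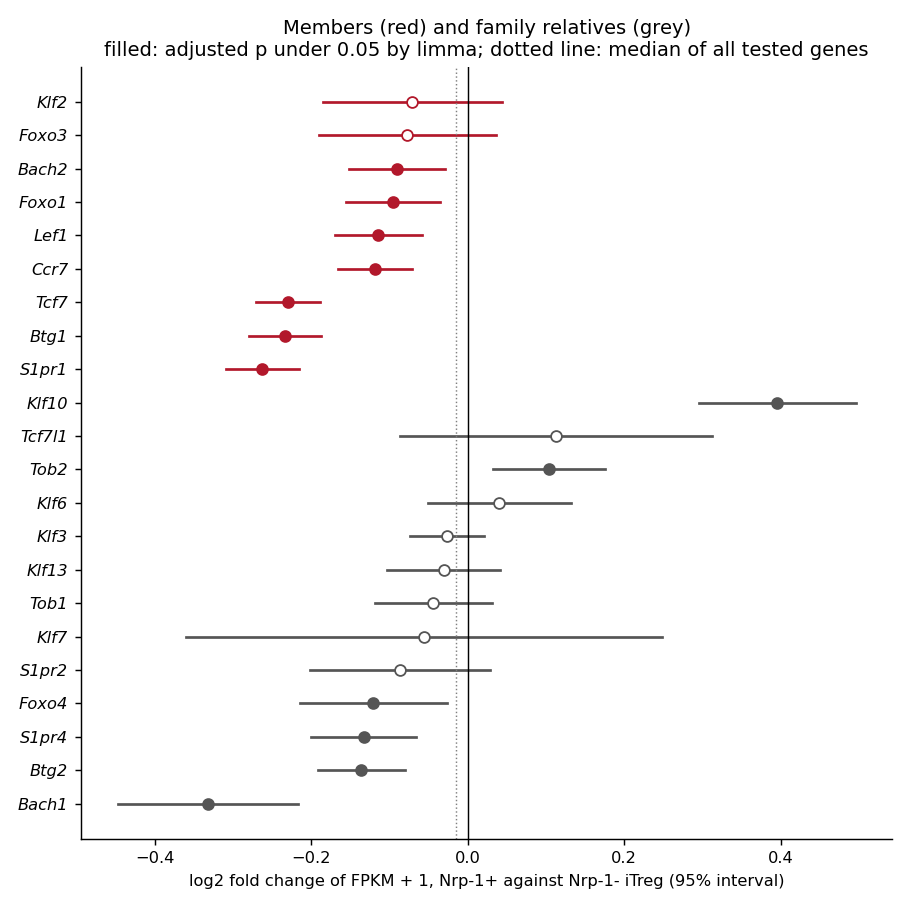
Log2 fold change with 95% interval of the 9 genes (red) and 13 tested family relatives (grey), filled where the adjusted p by limma was under 0.05. Members spread from -0.26 to -0.07 and relatives from -0.33 for Bach1 to 0.40 for Klf10. Btg3 is not drawn.

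Of 20 relatives fixed as a list, 14 were tested, 4 were lower and 2 higher in the Nrp-1+ libraries at an adjusted p under 0.05 by limma, near the 20.0% lower and 20.9% higher of all tested genes, and the median log2 fold change was -0.050. Bach1, a repressor related to BACH2 that controls haem and oxidative stress genes, was at 5.47 ± 0.419 and 7.13 ± 0.230 FPKM (SD, n = 4), with a log2 fold change of -0.33 (adjusted p = 0.00112 by limma). S1pr4, another sphingosine-1-phosphate receptor of lymphocytes, was at 129.5 ± 4.70 and 142.1 ± 2.46 FPKM (adjusted p = 0.00711). Btg2, which acts with BTG1, was at 53.2 ± 0.557 and 58.5 ± 1.69 FPKM (adjusted p = 0.00269). S1pr4 and Btg2 lost their calls with the rescaling that leaves out short RNA genes (adjusted p = 0.141 for S1pr4 and 0.111 for Btg2 by limma). Foxo4 had an adjusted p of 0.0448 by limma and overlapping groups, 11.2 to 12.6 FPKM and 12.5 to 13.8 FPKM, and lost its call under 10 of 18 alternatives.

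Klf10, a KLF factor that TGF-β induces, went the other way, at 14.2 ± 0.620 and 10.6 ± 0.541 FPKM (SD, n = 4) in Nrp-1+ and Nrp-1- iTreg, and its log2 fold change was 0.40 (standard error 0.043, adjusted p = 2.01e-04 by limma). Tob2, an antiproliferative relative of BTG1, was at 20.8 ± 0.811 and 19.3 ± 0.367 FPKM (adjusted p = 0.0278), and lost its call under 7 of 18 alternatives. Klf3, Klf6, Klf7, Klf13, S1pr2, Tcf7l1 and Tob1 did not pass, with log2 fold changes from -0.09 for S1pr2 to 0.11 for Tcf7l1. Btg3 was near 0 in 6 libraries and at up to 4.90 FPKM in the other 2, both Nrp-1-, and did not pass (adjusted p = 0.145 by limma). With the rescaling that leaves out short RNA genes Btg3 passed (adjusted p = 0.0345). Foxo6, Klf4, S1pr3, S1pr5, Tcf7l2 and Btg4 were under the filter.

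**Figure D4:**
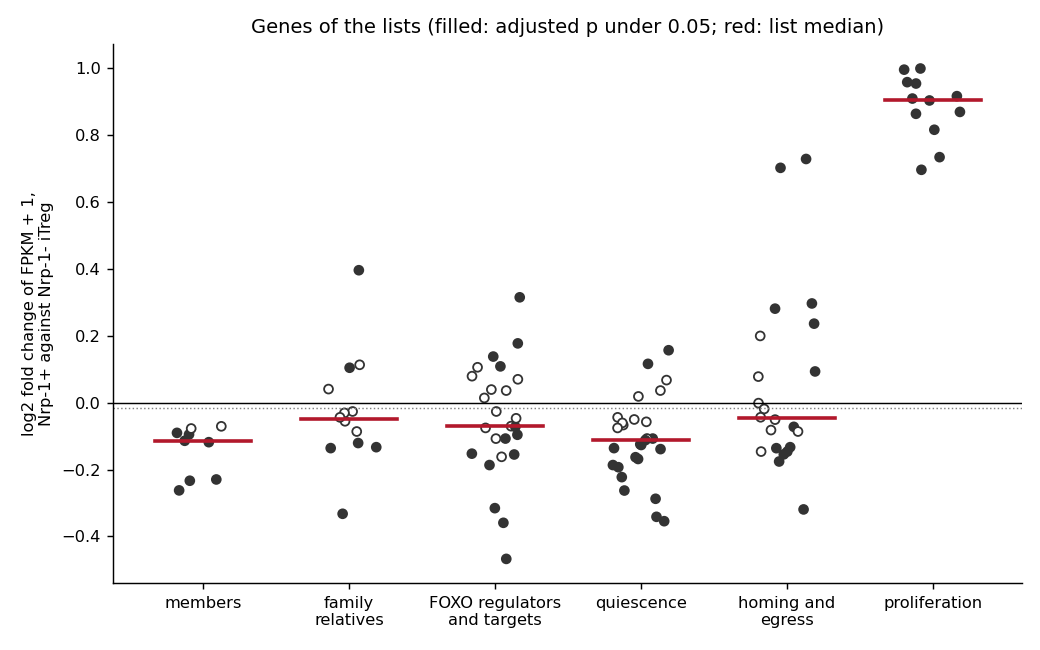
Log2 fold change of the genes of each list, filled where the adjusted p by limma was under 0.05, with the list median in red and the median of all tested genes as a dotted line. The quiescence genes lie mostly below 0 and the 12 proliferation genes between 0.70 and 1.00, while the homing genes spread to both sides (Btg3 is not drawn but enters its median).

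Of 25 regulators and targets of FOXO factors, 9 were lower and 4 higher in Nrp-1+ iTreg (36% lower, beside 20.0% lower and 20.9% higher over all tested genes), with a median log2 fold change of -0.07. With the rescaling that leaves out short RNA genes, 5 were lower and 5 higher. Over the whole table, that scaling gave 1065 lower and 2956 higher genes, in place of 2093 and 2189. Among the lower genes were Pik3ip1, an inhibitor of PI3K (102.2 ± 1.32 against 141.6 ± 0.915 FPKM, adjusted p = 4.47e-07 by limma), and Txnip, which restrains glucose uptake (430.1 ± 9.44 against 535.3 ± 3.59 FPKM). Il7r, the receptor chain for the survival cytokine IL-7, was at 122.8 ± 4.60 and 157.7 ± 4.56 FPKM, a log2 fold change of -0.36 (adjusted p = 6.84e-05 by limma). Sgk1, a kinase that phosphorylates FOXO factors, was higher, at 18.2 ± 0.417 against 14.5 ± 0.392 FPKM (log2 fold change 0.31, adjusted p = 5.40e-05). Akt1, named after its values were seen because AKT is the main kinase of FOXO factors, was at 72.6 ± 1.95 and 64.1 ± 0.708 FPKM (adjusted p = 5.61e-04).

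The list of T cell quiescence genes had the larger share of lower genes. Of 27 tested, 15 were lower and 2 higher in Nrp-1+ iTreg, 55.6% lower against the 20.0% of all tested genes, with a median log2 fold change of -0.11. With the rescaling that leaves out short RNA genes 8 were lower and 3 higher, while the lower genes over the whole table went from 2093 to 1065. The list was chosen with earlier results of these data known, so its share is a description. The largest changes were as follows. 4632428N05Rik, the gene of the checkpoint receptor VISTA, was at 49.6 ± 1.62 and 63.7 ± 1.66 FPKM (adjusted p = 3.93e-05 by limma). Cblb, a ubiquitin ligase that limits T cell receptor signals, was at 29.0 ± 0.110 and 37.0 ± 1.44 FPKM (adjusted p = 4.12e-05). Fam65b, an inhibitor of RhoA in resting T cells, was at 54.9 ± 0.904 and 67.2 ± 1.67 FPKM, and Slfn2, needed for T cell quiescence, at 197.3 ± 8.07 and 236.8 ± 4.07 FPKM. The 2 higher genes of the list, Runx1 and Id3, kept no call when Nrp-1+ replicate 2, 3 or 4 or Nrp-1- replicate 1, 3 or 4 was left out.

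Of the homing and egress genes outside the 9, 7 of 22 tested were lower and 6 higher in Nrp-1+ iTreg, beside 20.0% and 20.9% of all tested genes, and the median log2 fold change was -0.047. With the rescaling that leaves out short RNA genes, 4 were lower and 7 higher, while 1065 genes were lower and 2956 higher over the whole table. Itgb1, the β1 integrin chain used for adhesion to tissue matrix, was at 38.2 ± 0.429 and 22.7 ± 0.401 FPKM in Nrp-1+ and Nrp-1- iTreg (log2 fold change 0.73, adjusted p = 2.33e-07 by limma). Fut7, which makes selectin ligands, was at 10.8 ± 1.04 and 6.25 ± 0.492 FPKM (log2 fold change 0.70), and Ccr4, a skin and tissue homing receptor, at 11.2 ± 0.290 and 8.92 ± 0.448 FPKM (log2 fold change 0.30). Ccr9, a gut homing receptor, was low in both groups, at 1.55 ± 0.0704 and 2.20 ± 0.411 FPKM (adjusted p = 0.0265), and lost its call without Nrp-1+ replicate 2 or 4 or Nrp-1- replicate 2 or 3.

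Other measures moved with the same sort. All 12 genes of a short proliferation list were higher in Nrp-1+ iTreg, at a sum of 1713 to 1765 FPKM against 948.2 to 967.8 FPKM, with Mki67 at 82.3 ± 4.59 and 46.3 ± 1.40 FPKM and Top2a at 346.2 ± 9.71 and 173.2 ± 3.08 FPKM (SD, n = 4). The part of proliferation in the difference of the quiescence and homing genes was not tested. The 9 genes themselves summed to 1734 to 1757 FPKM in Nrp-1+ iTreg and to 1916 to 1994 FPKM in Nrp-1- iTreg. Of 9 CD4 T and Treg markers found, 3 were lower and 3 higher, where 20.0% and 20.9% of all tested genes were, and their sums overlapped, at 2303 to 2359 and 2326 to 2453 FPKM. Of the 2 CD8 markers, Cd8a was at most 0.111 FPKM and Cd8b1 was lower in Nrp-1+ iTreg, at 7.07 to 8.77 against 9.28 to 11.3 FPKM. Among B cell, myeloid and NK markers, Ms4a1, Pax5, Cd14, Csf1r, Itgax, Flt3, Ncr1 and Klrb1c were at 0 or at most 0.121 FPKM. Of the others, the highest value was 11.3 FPKM for Nkg7, 5.38 FPKM for Cd79b, 1.57 FPKM for Cd68, 0.999 FPKM for Eomes, 0.867 FPKM for Cd79a and 0.352 FPKM for Lyz2, all with overlapping groups. The marker sums overlapped for B cells (5.21 to 5.91 and 4.01 to 5.80 FPKM), for myeloid and dendritic cells (17.0 to 18.5 and 18.2 to 24.1 FPKM) and for NK cells (9.08 to 12.3 and 8.48 to 10.8 FPKM). H2-Ab1 was lower (10.2 ± 0.947 against 13.8 ± 1.76 FPKM) and Itgam higher (6.70 ± 0.252 against 5.56 ± 0.154 FPKM) in Nrp-1+ iTreg, the 2 myeloid and dendritic markers tested. The erythroid markers were higher in Nrp-1+ iTreg, at 5.49 to 8.03 against 2.05 to 3.32 FPKM, nearly all of it Hba-a1, while Alas2 was at most 0.0806 FPKM. The part of these markers in the results was not tested.

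**Figure D5:**
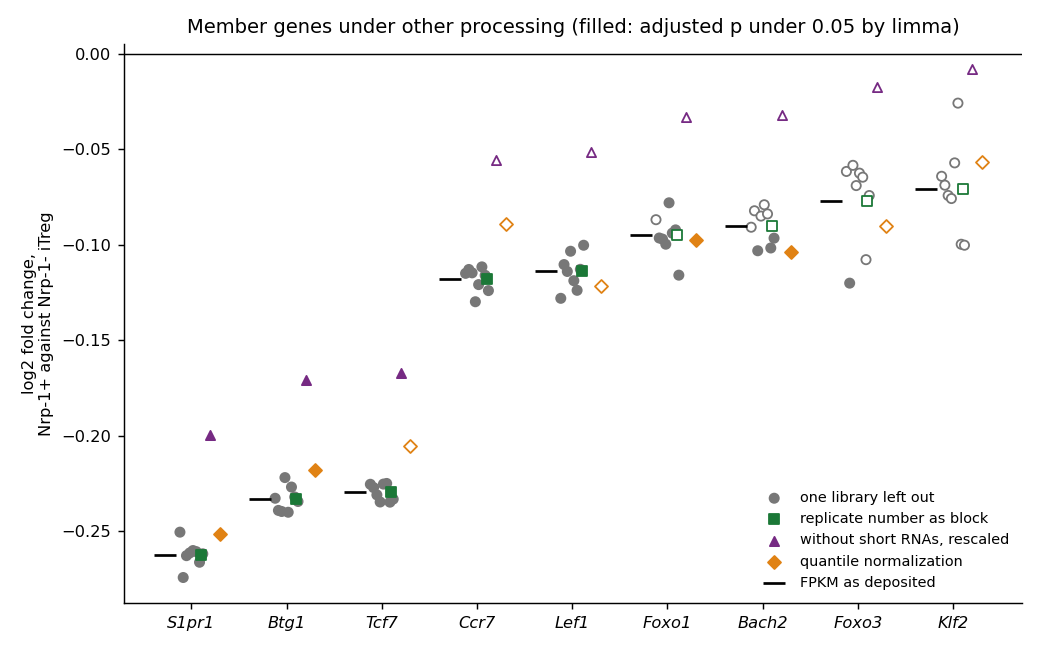
Log2 fold change of the 9 genes with FPKM as deposited (black bar), with 1 library left out (grey), with the replicate number as a block (green), with short RNA genes removed and the rest rescaled (purple) and with quantile normalization (orange), filled where the adjusted p by limma was under 0.05. All points are below 0, and S1pr1 and Btg1 are filled throughout.

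The genes most like each of the 9 across the 8 libraries were sought among 8140 others with a mean FPKM of at least 5, by Pearson correlation of log2(FPKM + 1). The correlation mixes the difference between groups with the spread within them, and the libraries share their scaling, so it is a description. S1pr1 was most like Dgka (r = 0.998), which encodes a diacylglycerol kinase that dampens T cell receptor signals, at 220.8 and 257.7 FPKM, and Vipr1 (r = 0.997), the receptor of vasoactive intestinal peptide, at 14.3 and 21.0 FPKM. Tcf7 was most like Eif4g3 and Pik3ip1 (r = 0.997 for both), and Btg1 like Tspyl1 (0.996) and Ifngr1, the interferon-γ receptor chain (0.993). Ccr7 was most like Sqstm1 (0.993) and Ncoa1 (0.990), Lef1 like Gtpbp4 (0.990) and Rnf20 (0.983), Foxo1 like Tet3 (0.979) and Tnrc6b (0.975), and Bach2 like Yy1 (0.979) and Hist3h2a (0.978), the last from a histone family whose reads can be shared. Each of these was lower in the mean in Nrp-1+ iTreg, with no overlap between the groups. The genes nearest to Klf2 (2700089E24Rik, 0.957; Naa35, 0.943) and to Foxo3 (Mir195, 0.968; Ube3b, 0.956) had overlapping groups, as Klf2 and Foxo3 themselves did, and Mir195 is a short RNA gene listed at 0 in some libraries.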

How the data were processed

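RNA-seq was performed on 8 libraries, 4 from each side of the Nrp-1 sort. The authors used the CLC Genomics Workbench for the reads and calculated FPKM with Cufflinks, and the deposited FPKM table holds 1 value per gene symbol and library. The submitters' processing notes name GRCm38 and mm10, and aligner settings, annotation and strand handling are not given in the sources used here. The library kit differs between the labels and the study's methods. FPKM values are not counts, so no count model was used. At most 0.00955% of tested genes had the same nonzero value in 2 libraries, so no library was a copy.

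FPKM were tested as deposited on log2(FPKM + 1) with limma 3.58.1 (lmFit, eBayes with trend) in R 4.3.3, over the 10467 genes whose mean FPKM reached 1, and p values were adjusted by Benjamini-Hochberg over all of them. On this scale the pseudocount shrinks the change of genes with low values. Exact two-sided permutation tests over libraries used Python 3.11.15 and scipy 1.17.1. The members, partner pairs and gene lists were chosen with earlier results of these data known. Genes named were the 9 members, tested family relatives, the 4 called genes with the largest change in each of 3 lists, Il7r, Mki67, Top2a, Nrp1, Foxp3 and the 2 genes most correlated with each member; marker genes and Akt1, Runx1 and Id3 were named with their values known. Some genes are not reported here. Short RNA genes are 799 symbols of microRNA, snoRNA and similar genes, 271 of them tested. Fits and permutation tests were tested on simulated data. The alternatives tried were other pseudocounts (0.1 and 0.5), other filters (none and 5 FPKM), median-of-ratios size factors, quantile normalization, rescaling without short RNA genes, a block for replicate number, eBayes without trend and each library left out. Quantile normalization without short RNA genes, and the alternatives for the lists, were added after the data were seen.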

Additional observations from a re-analysis of the deposited data

Results flagged for a closer look

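Among 120 groups of 4 libraries (members, other named genes and partner ratios), 7 held a library far from the other 3, where chance gives about 6. Foxo3 was at 24.3 FPKM in Nrp-1+ replicate 2, against 21.3 to 21.8 FPKM in the others. Ccr7 was at 446.1 FPKM in Nrp-1+ replicate 4, against 430.7 to 432.5 FPKM. The log2 ratio of S1pr1 to Klf2 was -0.87 in Nrp-1+ replicate 2, against -0.93 to -0.92. Tob2 was at 18.8 FPKM in Nrp-1- replicate 4, against 19.4 to 19.5 FPKM. Of the genes named for their likeness, Tnrc6b was at 5.95 FPKM in Nrp-1+ replicate 2 (others 5.80 to 5.81), Tspyl1 at 43.1 FPKM in Nrp-1+ replicate 4 (others 44.6 to 44.9), and Mir195 at 41.6 FPKM in Nrp-1+ replicate 2, with the others listed at 0.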

How the results depend on the processing

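Over 18 alternatives, each of the 9 members kept a negative log2 fold change, and of 162 member values 146 stayed on the same side of the threshold, 15 lost a call and 1 (Foxo3) gained one. Scaling mattered most. With short RNA genes removed and libraries rescaled by factors of 0.967 to 1.05, the median of all genes was 0.043, 1065 genes were lower and 2956 higher, lower genes were 26.5% of the calls against 48.9% as deposited, and 3 members passed. The lower genes of the lists were then 2 relatives, 5 FOXO regulators and targets, 8 quiescence and 4 homing genes, and the differences in FPKM that lost their exact permutation call were -2.25 for Foxo1, -17.6 for Ccr7, -6.00 for Lef1 and -0.339 for Bach2. With quantile normalization 4 members passed, and with quantile normalization without short RNA genes 7 did, with lower genes at 59.4% of the calls. With the replicate number as a block 5 members passed, without Foxo1 (adjusted p = 0.0689 by limma) and Bach2 (0.0798), and 1675 genes were lower and 1931 higher. The deviations of same-numbered libraries from their group means correlated at -0.54 to 0.010 over all tested genes. Without short RNA genes they correlated at -0.11 to -0.038. Such correlations cannot tell whether same-numbered libraries came from the same culture, so the pairing is not known. The relatives higher in Nrp-1+ iTreg were 1 with the block and with quantile normalization without short RNA genes, in place of 2. The quiescence genes higher were 0 with no filter and with the block, and 1 with either quantile normalization and without trend, in place of 2. With each library left out, 5 to 7 members were lower, relatives higher numbered 1 to 2 and quiescence genes higher 0 to 2. The difference was then -7.58 to -5.06 FPKM for Foxo1 and -1.06 to -0.813 FPKM for Bach2, and the log2 ratio difference -0.13 to -0.10 for Tcf7 to Lef1 and -0.24 to -0.16 for S1pr1 to Klf2. Read depth is known only as relative depth, so no counting interval is given.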

Other observations

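Within the groups, the 9 genes did not follow each other closely. Over the 8 libraries the 36 pairs of the 9 genes had Pearson correlations of log2(FPKM + 1) from 0.167 to 0.988, with a median of 0.800, whereas deviations from the group means correlated from -0.78 to 0.809, with a median of 0.134. The points share their libraries and scaling, and the values are a description.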
